A study of Homo sapiens with 6 samples.

Results

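The SOX family consists of transcription factors that share the HMG box, a DNA-binding domain related to that of SRY. The genes described here were chosen by symbol: 9 SOX genes (SOX2, SOX4, SOX5, SOX6, SOX8, SOX9, SOX11, SOX12 and SOX13) of the 26485 gene symbols in the count table. All 9 passed the filter on low counts. RNA was sequenced from 6 cultures of EndoC-βH1, an insulin-secreting human beta cell line derived from fetal pancreas. In 3 cultures the lentiCRISPRv2 vector carried sgZHX3-3, a guide against the first coding exon of ZHX3 (genotype label ZHX3 KO). In the other 3 the same vector was empty (genotype label WT). By the series' design text, lentiCRISPRv2, which also delivers Cas9, went into the cells of both groups, which were selected with an antibiotic and grown on as stable lines. Only 1 guide was used. The labels number biological replicates 1 to 3 in each group without saying whether these are separate lines or repeat cultures, so the p-values may measure spread between cultures only. The RNA is bulk RNA, in which fewer cells expressing a gene and less of its RNA per cell cannot be told apart.

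SOX proteins bind the minor groove of DNA through the HMG box and bend it, usually together with a partner factor. SOX2 belongs to the B1 group of activators that maintain stem and neural progenitor cells; SOX4, SOX11 and SOX12 form the C group, active in differentiating neurons and endocrine precursors; SOX5, SOX6 and SOX13 form the D group, which has no activation domain of its own; and SOX8 and SOX9 belong to the E group of the gonads, cartilage, neural crest and glia. In the pancreas SOX9 maintains progenitor cells and persists in ducts, Sox4 is needed in mice for endocrine cell formation, and Sox6 holds back Pdx1 activity in rodent beta cell lines.

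The start of the HMG box shows how closely the 9 genes are related at the level where reads are counted. Each line below gives 60 bases of coding sequence, read 5′ to 3′ from the conserved start of the box in a GENCODE release 29 transcript, with the bases that differ from SOX8 in capitals.
SOX8: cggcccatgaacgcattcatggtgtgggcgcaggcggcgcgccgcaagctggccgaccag
SOX9: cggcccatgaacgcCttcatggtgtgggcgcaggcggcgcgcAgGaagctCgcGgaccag
SOX2: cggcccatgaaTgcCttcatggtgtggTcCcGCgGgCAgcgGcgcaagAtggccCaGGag
SOX4: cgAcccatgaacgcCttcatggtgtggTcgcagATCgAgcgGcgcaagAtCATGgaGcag
SOX11: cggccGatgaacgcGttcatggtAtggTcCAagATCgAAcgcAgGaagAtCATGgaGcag
SOX12: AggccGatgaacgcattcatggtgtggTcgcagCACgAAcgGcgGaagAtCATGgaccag
SOX5: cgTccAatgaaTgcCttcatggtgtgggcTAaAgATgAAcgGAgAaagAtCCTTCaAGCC
SOX6: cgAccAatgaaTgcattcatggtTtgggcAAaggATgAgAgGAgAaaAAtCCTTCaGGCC
SOX13: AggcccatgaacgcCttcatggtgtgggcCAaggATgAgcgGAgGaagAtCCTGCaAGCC
In GRCh38 the windows lie at chr16:982232-982291 for SOX8, chr17:72121710-72121769 for SOX9, chr3:181712487-181712546 for SOX2, chr6:21594715-21594774 for SOX4, chr2:5692872-5692931 for SOX11, chr20:326048-326107 for SOX12 and chr1:204123705-204123764 for SOX13 on the plus strand. Those of SOX5 (chr12:23543251-23543310) and SOX6 (chr11:15989037-15989096) lie on the minus strand. The window is coding sequence of exon 1 in SOX2, SOX4, SOX8, SOX9, SOX11 and SOX12, of exon 12 in SOX5 and SOX13, and of exon 14 in SOX6. SOX9 differed from SOX8 at 5 of the 60 bases, and the remaining genes at 14 (SOX2 and SOX4) to 24 bases (SOX5 and SOX6). Over the first 210 bases of the box SOX8 and SOX9 were 91.4% identical, SOX4 and SOX11 88.6% and SOX5 and SOX13 83.8%. No 50-base stretch was identical between the transcripts of any 2 of the 9 genes. SOX8, SOX9, SOX12 and SOX13 shared no such stretch with any other annotated gene, and the largest share was 2.09% of the stretches of SOX4, all with an antisense transcript.

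The libraries labelled sgZHX3-3 held 45101454 to 61051884 counts and those labelled Empty 46624747 to 58167871, of which 16199 genes were tested. ZHX3 itself was higher, at 177 ± 8.62 CPM (counts scaled to library size; SD, n = 3) in sgZHX3-3 and 105 ± 4.19 CPM (SD, n = 3) in Empty, so its RNA was not reduced in the libraries labelled ZHX3 KO, and its log2 fold change was 0.75 (edgeR adjusted p = 1.62e-05). The groups are therefore called by their labels. On the first principal component the sgZHX3-3 libraries lay at −12.3, −15.6 and −22.1, Empty 1 at 6.34, and Empty 2 and 3 at 19.9 and 23.8, so Empty 1 stood apart from the other Empty libraries. All 8 beta cell markers were detected and 6 were higher in sgZHX3-3, where 7.11% of all tested genes were. Their summed levels of 35195 to 43327 CPM in sgZHX3-3 and 30364 to 38247 CPM in Empty were mostly CHGA and INS, the markers that did not pass (edgeR adjusted p = 0.152 and 0.219).

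Per kilobase of exon, SOX12 and SOX4 were the most abundant of the 9 genes and SOX5 the least. Summed over the 9 genes the level was 78.6, 83.6 and 88.1 CPM per kb in sgZHX3-3 libraries 1 to 3, and 79.0, 73.6 and 75.0 CPM per kb in Empty 1 to 3. The mean level of SOX12 was 28.997 ± 3.72 CPM per kb in sgZHX3-3 and 26.2 ± 2.43 in Empty (SD, n = 3 each). That of SOX4 was 25.2 ± 0.0816 CPM per kb in sgZHX3-3 and 24.9 ± 0.458 in Empty (SD, n = 3 each). These genes could not be ranked: SOX12 was above SOX4 in 4 of 6 libraries, and their ranges overlapped in both groups. The order then ran through SOX13, SOX11, SOX9, SOX2, SOX6 and SOX8 to SOX5, the same in both groups, and each of these neighbours kept its place in 6 of 6 libraries with no overlap of ranges. SOX5 was at 0.294 ± 0.0104 CPM per kb in sgZHX3-3 and 0.268 ± 0.0666 in Empty (SD, n = 3 each). Exon lengths come from GENCODE, which may differ from the annotation that was counted on, so levels compared between genes are approximate.

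Of the 9 genes, 3 were higher in the libraries labelled sgZHX3-3 (SOX8, SOX6 and SOX11), 0 were lower and 6 did not pass, in a comparison where 7.11% of all tested genes were higher and 4.98% lower (edgeR, adjusted p below 0.05). Calls in either direction made up 12.1%, with 1151 higher and 807 lower, a split that became 904 higher and 1272 lower with library totals alone. SOX8 rose 2.67-fold, SOX6 1.26-fold and SOX11 1.15-fold. The groups did not overlap for these genes and SOX13, with sgZHX3-3 above in all 4, as for 16.0% of all genes. The median log2 fold change of the 9 genes was 0.18, against −0.002 for all tested genes. All 9 log2 fold changes were above 0, as were those of 49.5% of all genes, but SOX4 turned to −0.02 with library totals alone and to −0.0058 with trends of transcript length and GC content removed, SOX5 to −0.16 with a trend of gene span removed and to −0.05 without Empty 1, and SOX9 to −0.04 without Empty 2 and 3. With Empty 2 and 3 both left out, or with the replicate number as a block, 1 of the 9 genes was called, namely SOX8, as it was at an adjusted p below 0.01 or with a log2 limit of 1. Of all genes, 1.26%, 3.19%, 2.88% and 0.370% were called higher in these settings. Leaving out sgZHX3-3 library 1, 2 or 3 left 2, 1 and 1 of the 9 genes called higher, against 6.14%, 3.01% and 5.11% of all genes. Leaving out Empty 1, 2 or 3 gave 4, 2 and 1, against 10.9%, 3.42% and 2.89%. SOX8 was the only one of the 9 genes that passed in each of 16 alternative settings with the threshold kept.

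**Figure D1:**
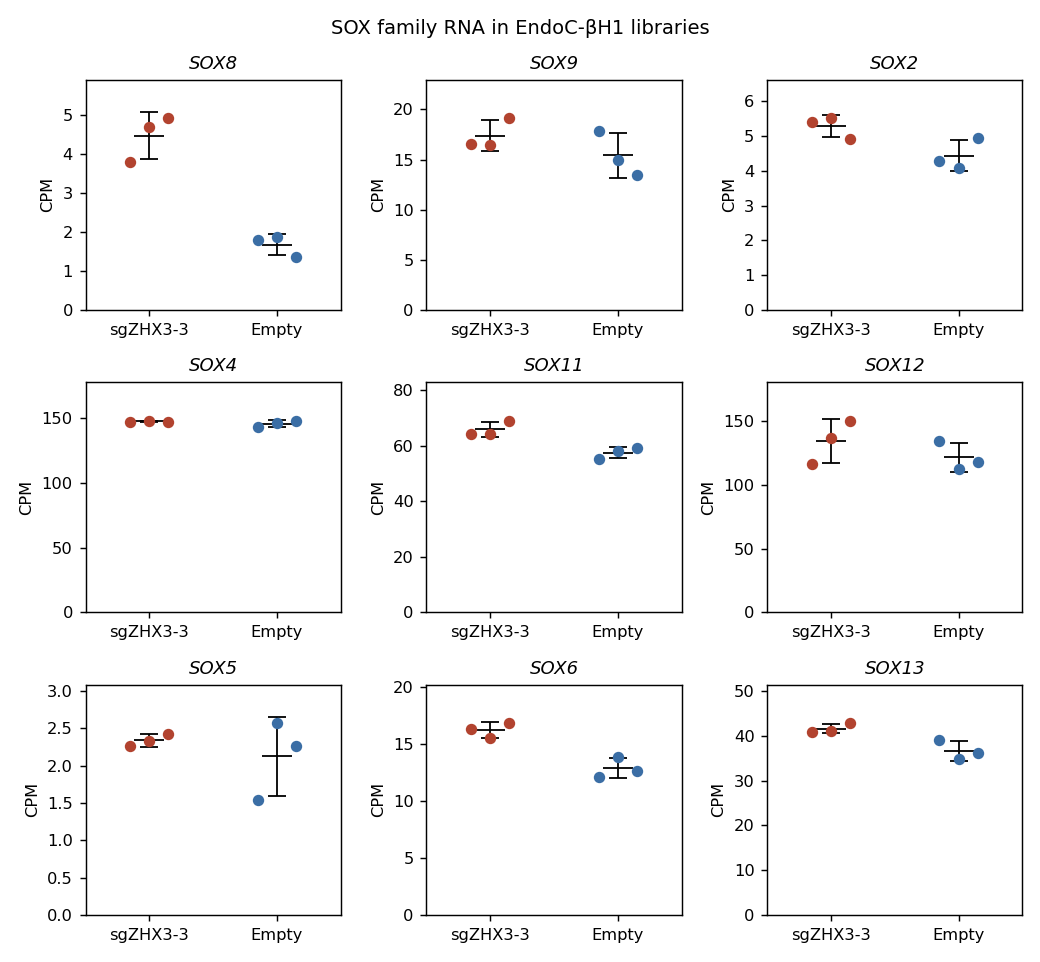
Level of each SOX gene in CPM on an axis from 0, with 1 point per library, the mean and the SD (n = 3), sgZHX3-3 left and Empty right. SOX8 shows the largest fold difference, with 3.78 to 4.91 CPM in sgZHX3-3 and 1.36 to 1.86 CPM in Empty, while the groups of SOX4 lie between 143 and 148 CPM.

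SOX8 (ENSG00000005513.9; chromosome 16 from 981808 to 986979, plus strand, GRCh38), an E-group factor of testis, neural crest and glia, changed most. Its counts were 169, 234 and 296 in sgZHX3-3 libraries 1 to 3 and 84, 110 and 67 in Empty 1 to 3. In CPM these were 3.78, 4.69 and 4.91 in sgZHX3-3 and 1.796, 1.86 and 1.36 in Empty. All sgZHX3-3 libraries lay far above all Empty libraries, and library 1 of the guide group was the lowest of its group. The means were 4.46 ± 0.600 CPM in sgZHX3-3 and 1.67 ± 0.269 CPM in Empty (SD, n = 3 each), and the log2 fold change was 1.41 (SE 0.162, 95% interval 1.07 to 1.76, edgeR adjusted p = 0.000229). In fold terms the interval ran from 2.09 to 3.40. Of the 1151 genes called higher, 20 had a larger log2 fold change, and 4 of those had at least 1 CPM in Empty. With any 1 library left out the log2 fold change of SOX8 stayed between 1.29 and 1.52 (edgeR adjusted p from 0.000171 to 0.00230). Without Empty 2 and 3 it was 1.32 (adjusted p = 0.0207), where the single Empty library is assumed to vary like the others.

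SOX8 starts 490 bases from LMF1, a lipase maturation factor gene that is transcribed in the opposite direction from the minus strand. LMF1 had 23.4, 21.5 and 23.4 CPM in sgZHX3-3 and 19.7, 17.4 and 18.4 CPM in Empty. It too was higher, with no overlap of the groups, but at a log2 fold change of 0.30 (SE 0.0744, edgeR adjusted p = 0.0213), and its call was lost in 5 of the 6 settings that left out 1 library, with adjusted p up to 0.117, and without Empty 2 and 3 (0.21, adjusted p = 0.397). The neighbours on the other side were SSTR5-AS1 (0.18, adjusted p = 0.185) and SSTR5, a somatostatin receptor gene (0.16, adjusted p = 0.506), and neither passed. LMF1-AS1 had 7 counts at most in a library and was not tested.

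Markers of crest and Schwann cells, in which E-group genes are also expressed, stayed near the detection limit. The summed level of 7 such markers was 5.13 to 5.54 CPM in sgZHX3-3 and 5.58 to 5.66 CPM in Empty, slightly lower in the guide group where SOX8 was higher. The closest relative of SOX8 and SOX9, SOX10, had 3 counts at most in a library, and the glial markers S100B and CDH19 had 3 and 2 at most. Of the 7 markers 3 were tested and 0 called, where 12.1% of all tested genes were called in either direction.

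SOX9 (ENSG00000125398.6; chromosome 17 from 72121020 to 72126420, plus strand), the progenitor and duct factor, did not pass. It had 16.6, 16.4 and 19.1 CPM in sgZHX3-3 and 17.9, 14.99 and 13.4 CPM in Empty. The groups overlapped, since Empty 1 was higher than sgZHX3-3 libraries 1 and 2. The log2 fold change was 0.17 with a 95% interval from −0.05 to 0.40 (edgeR adjusted p = 0.299). Without Empty 1 it was 0.29 and passed (adjusted p = 0.0416), and without Empty 2 and 3 it was −0.04 (adjusted p = 0.928), so its call and direction depended on which Empty libraries were used. The 8 duct markers other than SOX9 summed to 59.6 to 63.04 CPM in sgZHX3-3 and 59.8 to 66.2 CPM in Empty. Of the 5 tested, 0 were higher and 1, the trefoil peptide gene TFF1, was lower, beside 7.11% and 4.98% of all tested genes. Most of the sum was KRT19, at 50.9, 54.7 and 53.0 CPM in sgZHX3-3 and 51.4, 47.6 and 54.1 CPM in Empty. KRT19 did not pass (log2 fold change 0.05, edgeR adjusted p = 0.633). CFTR and SPP1 had 10 and 4 counts at most, and TFF2 had 0 in every library. The antisense gene SOX9-AS1, whose span covers SOX9, had 5, 13 and 13 counts in sgZHX3-3 and 10, 4 and 4 in Empty and did not pass (adjusted p = 0.392).

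The ratio of SOX8 to SOX9 within a library does not depend on library scaling. There were 0.228, 0.285 and 0.257 SOX8 counts per SOX9 count in sgZHX3-3 and 0.1005, 0.124 and 0.102 in Empty. All sgZHX3-3 libraries lay above all Empty libraries, and the mean log2 ratio differed by 1.24. This was 1 of 7 ratios between genes of the same group. With 3 libraries against 3 the exact two-sided permutation test gave p = 0.10, the smallest it allows, and p = 0.35 after Benjamini-Hochberg adjustment over the 7 ratios, so the ratios cannot pass a threshold of 0.05. Of the other 6 ratios only that of SOX4 to SOX11 showed no overlap of the groups.

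**Figure D2:**
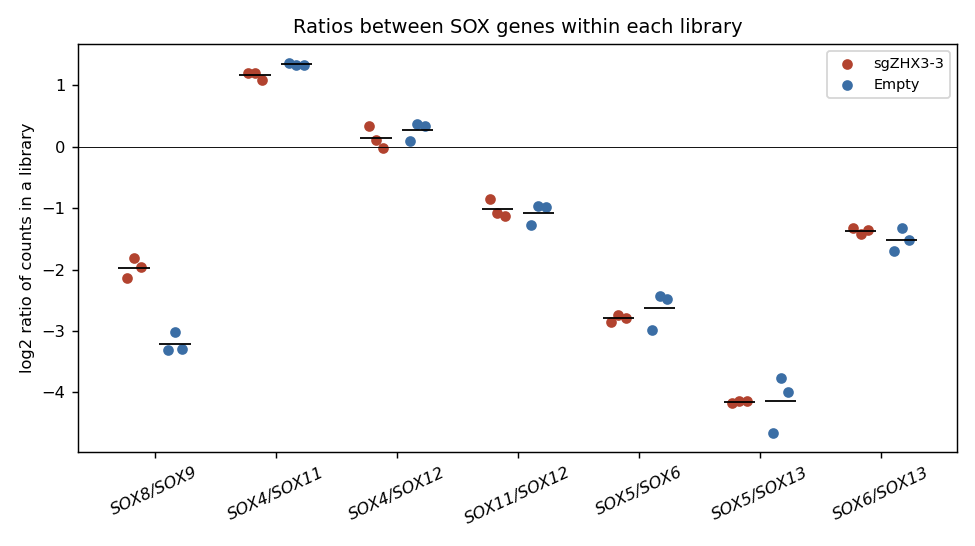
Log2 ratio of the counts of 2 SOX genes within a library for 7 pairs, with 1 point per library, sgZHX3-3 left and Empty right of each tick, and group means as lines. SOX8/SOX9 shows the widest separation (difference of means 1.24) and SOX4/SOX11 the other separation without overlap (−0.18).

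The C group includes SOX12 and SOX4, the most abundant of these SOX genes per kilobase of exon, and neither passed. SOX4 (ENSG00000124766.6; chromosome 6 from 21592768 to 21598619, plus strand), which acts in endocrine differentiation, had 147, 148 and 148 CPM in sgZHX3-3 and 143, 147 and 148 CPM in Empty. The groups overlapped, and the sgZHX3-3 libraries varied by a CV of 0.323%, less than the 1.15% that counting error alone gives at this depth. The log2 fold change was 0.02 with a 95% interval from −0.09 to 0.12 (edgeR adjusted p = 0.857), which leaves room for a fold between 0.941 and 1.09.

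SOX11 (ENSG00000176887.6; chromosome 2 from 5692667 to 5701385, plus strand), a factor of neuronal differentiation, was slightly higher. It had 64.2, 64.4 and 69.1 CPM in sgZHX3-3 and 55.2, 58 and 59.2 CPM in Empty. The groups did not overlap, as for 32.0% of all tested genes in either direction. The log2 fold change was 0.20 (SE 0.0574, 95% interval 0.07 to 0.32, edgeR adjusted p = 0.0414). This call was lost when any 1 library was left out (adjusted p from 0.0530 to 0.126), with library totals alone (0.0868), with trends of transcript length and GC content removed (0.0678) and without Empty 2 and 3 (0.194), while the log2 fold change stayed between 0.16 and 0.26. Relative to SOX11 in the same library, SOX4 had 2.30, 2.30 and 2.14 counts per SOX11 count in sgZHX3-3 and 2.59, 2.53 and 2.50 in Empty, a difference in mean log2 ratio of −0.18 (exact permutation p = 0.10, p = 0.35 adjusted over 7 ratios).

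SOX12 (ENSG00000177732.8; chromosome 20 from 325595 to 330224, plus strand), the third C-group gene, varied most between libraries relative to its depth. It had 116, 137 and 150 CPM in sgZHX3-3 and 134, 113 and 117 CPM in Empty, with a CV of 12.8% in sgZHX3-3 and 9.27% in Empty where counting error gives 1.19% and 1.27%. The groups overlapped widely. Its log2 fold change was 0.15 with a 95% interval from −0.05 to 0.34 (edgeR adjusted p = 0.317), and without Empty 2 and 3 it was 0.0045. The antisense gene NRSN2-AS1 spans SOX12 with no shared exon base in GENCODE; it had 11.5 ± 0.532 CPM in sgZHX3-3 and 10.02 ± 0.454 CPM in Empty (SD, n = 3 each) and did not pass (adjusted p = 0.153).

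Among D-group genes, which bind as dimers, SOX6 was higher and SOX5 and SOX13 did not pass. SOX6 (ENSG00000110693.17; chromosome 11 from 15966449 to 16739591, minus strand) had 16.3, 15.5 and 16.8 CPM in sgZHX3-3 and 12.1, 13.8 and 12.6 CPM in Empty. Each sgZHX3-3 library lay above each Empty library. SOX6 rose by 0.33 on the log2 scale (SE 0.0806, 95% interval 0.16 to 0.50, edgeR adjusted p = 0.0196). The call was lost without Empty 3 (0.0922), sgZHX3-3 library 2 (0.0574) or sgZHX3-3 library 3 (0.0614), and without Empty 2 and 3 (log2 fold change 0.42, adjusted p = 0.117).

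SOX6 spans 773 kb and SOX5 1033 kb, and very long genes as a class were higher in these libraries. Of 254 tested genes of at least 500 kb, 44.5% were higher and 0 lower, with a median log2 fold change of 0.27; of 12113 genes under 100 kb, 5.18% were higher, with a median of −0.02. After removal of the span trend from each library, SOX6 was at 0.08 (edgeR adjusted p = 0.533) and SOX5 at −0.16 (adjusted p = 0.623), while SOX8 was at 1.41 (0.000345) and SOX11 at 0.20 (0.0340). The SOX6 span also overlaps C11orf58 on the other strand, with 219 shared exon bases. C11orf58 was far more abundant, at 314 ± 24.9 CPM in sgZHX3-3 and 341 ± 1.10 CPM in Empty (SD, n = 3 each; adjusted p = 0.212), and no source used here states whether reads were counted by strand, so the SOX6 count is uncertain over those bases.

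**Figure D3:**
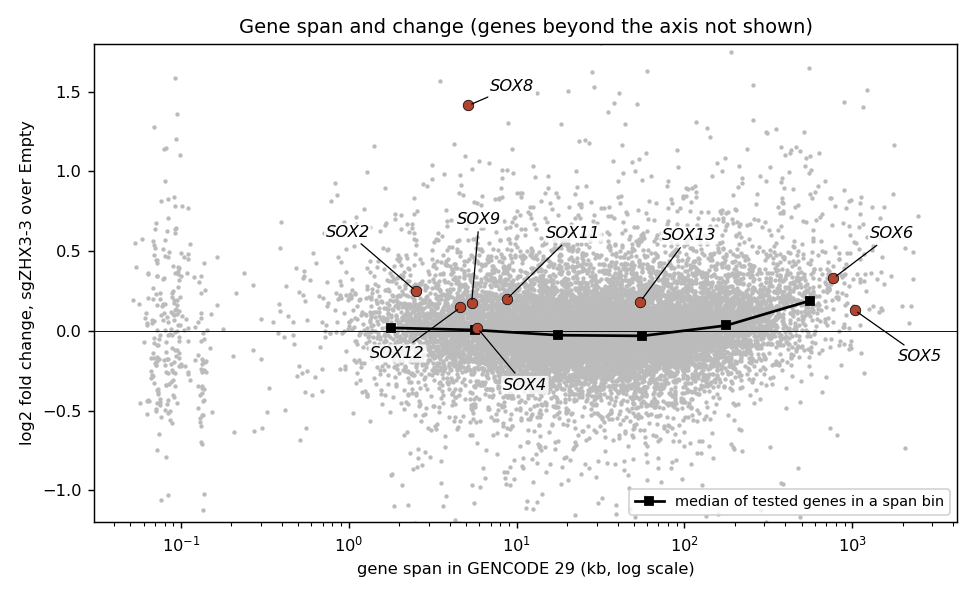
Log2 fold change (sgZHX3-3 over Empty) against gene span in kb on a log axis for tested genes (grey), with the median per span bin (black line) and the 9 SOX genes (red). SOX6 and SOX5 lie in the span range where the median rises, and SOX8, a gene of 5.17 kb, lies far above it.

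SOX5 (ENSG00000134532.16; chromosome 12 from 23529500 to 24562544, minus strand), a partner of SOX6 in cartilage and neurons, had 2.26, 2.33 and 2.42 CPM in sgZHX3-3 and 1.54, 2.57 and 2.26 CPM in Empty. Empty 1 was the lowest and Empty 2 the highest of all 6 libraries, so the groups overlapped. The log2 fold change was 0.13 with a 95% interval from −0.27 to 0.53 (edgeR adjusted p = 0.691), the widest interval of the 9 genes, at 72 to 152 counts per library. SOX13 (ENSG00000143842.14; chromosome 1 from 204073115 to 204127743, plus strand), known as an islet cell autoantigen, had 40.9, 41.2 and 42.9 CPM in sgZHX3-3 and 39.2, 34.8 and 36.1 CPM in Empty. Its groups did not overlap, but it did not pass (0.18, 95% interval 0.05 to 0.32, edgeR adjusted p = 0.0799); it passed without Empty 1 (0.24, adjusted p = 0.0180).

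SOX2 (ENSG00000181449.3; chromosome 3 from 181711924 to 181714436, plus strand), the pluripotency and neural stem cell factor, had 5.41, 5.51 and 4.91 CPM in sgZHX3-3 and 4.28, 4.09 and 4.95 CPM in Empty. Empty 3 was just above sgZHX3-3 library 3. The log2 fold change was 0.25 with a 95% interval from −0.0047 to 0.51 (edgeR adjusted p = 0.185), and it passed in 0 of 16 alternative settings. The gene lies inside SOX2-OT, a long non-coding gene on the same strand that shares no exon base with it and had 4 to 8 counts per library.

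**Figure D4:**
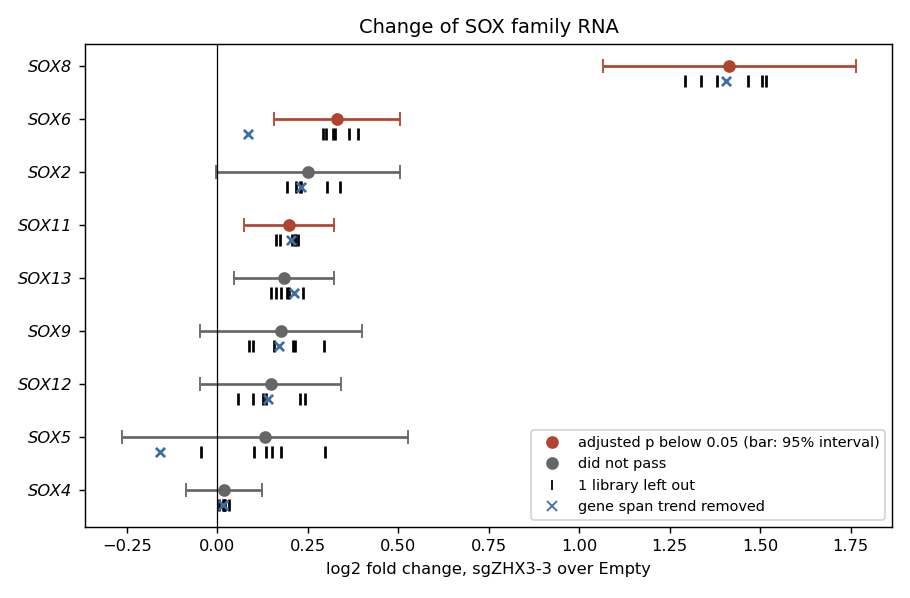
Log2 fold change of each SOX gene with its 95% interval, the 6 values with 1 library left out (black ticks) and the value with the gene span trend removed (blue cross). SOX8 lies between 1.29 and 1.52 in all of these, and the span correction moves SOX6 to 0.08 and SOX5 to −0.16.

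Of the 13 other symbols that start with SOX, 5 were tested and 0 called, where 12.1% of all tested genes were called in either direction. SOX30, a spermatogenesis factor, had 61, 109 and 105 counts in sgZHX3-3 and 74, 89 and 90 in Empty (log2 fold change 0.11, edgeR adjusted p = 0.752). SOX1, SOX15 and SOX7 had 11 to 34 counts in a library, with log2 fold changes of 0.25, 0.44 and 0.47 (adjusted p = 0.697, 0.498 and 0.295). The remaining 8 had 8 counts at most, and 3 of them had 0 in every library.

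By the likeness of their profiles over the 6 libraries, the genes nearest to SOX8 were CHRNA4, GRM4, TBX1, GRIN2A and SORCS2, out of 14052 genes compared. Likeness was the Euclidean distance of log2 CPM centred on each gene's mean, and it is a description of genes picked for sharing the contrast. CHRNA4, a nicotinic receptor subunit gene, was nearest at 0.345, with 5.35, 5.59 and 5.53 CPM in sgZHX3-3 and 2.37, 2.08 and 1.91 CPM in Empty. The glutamate receptor genes GRM4 and GRIN2A lay at 0.394 and 0.404, the transcription factor gene TBX1 at 0.403 and the sorting receptor gene SORCS2 at 0.408. No other SOX gene was near: they lay at 1.40 (SOX6) to 1.78 (SOX4), where the median of all compared genes was 1.81.

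Genes around the SOX genes in function mostly did not pass, nor did most of all tested genes, of which 7.11% were higher and 4.98% lower. The counts of the lists below stand beside these shares, and no list was tested as a set. Of 18 other HMG-box genes, 0 were higher and 2 lower, with a median log2 fold change of −0.03. HMGB3, a chromatin protein with paired HMG boxes, had 70.5, 70.3 and 62.5 CPM in sgZHX3-3 and 85.9, 90.3 and 93.7 CPM in Empty, and fell by 0.41 on the log2 scale (edgeR adjusted p = 0.00140). HBP1, an HMG-box repressor, fell by 0.27 on the log2 scale (adjusted p = 0.00754) but did not pass when Empty 3 (0.0604) or sgZHX3-3 library 2 (0.0607) was left out. Neither passed without Empty 2 and 3 (HMGB3 −0.34, adjusted p = 0.0949; HBP1 −0.24, 0.196). Of the TCF/LEF factors, the HMG-box partners of beta-catenin, TCF7 (−0.17, adjusted p = 0.408) and TCF7L2 (−0.15, 0.340) did not pass, nor did CTNNB1 (−0.01, 0.961) or the Wnt target AXIN2 (−0.09, 0.581). TCF7L1 and LEF1 had too few counts to be tested.

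Of 9 tested cofactors and modifiers of SOX proteins, 0 were called (median 0.06), where 12.1% of all tested genes were. The coactivators EP300 and CREBBP were at 0.12 and 0.13. With Empty 2 and 3 left out, EP300, CREBBP and the Mediator gene MED12 were at 0.36, 0.36 and 0.49. That setting compares sgZHX3-3 with Empty 1 alone, which was the lowest library for each of these genes. Empty 1 had 149, 116 and 42.3 CPM, where Empty 2 had 193, 145 and 55.6 and Empty 3 had 185, 145 and 54.8. The sgZHX3-3 libraries had 186 to 194, 145 to 151 and 54.8 to 63.5 CPM.

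Of all tested genes, 7.11% were higher and 4.98% lower. Among genes known as SOX9 targets in cartilage, 1 of 7 tested was higher and 0 lower (median 0.03). This was COL9A2, a collagen IX chain, with 31.6, 34.7 and 41.6 CPM in sgZHX3-3 and 26.8, 20.9 and 21.5 CPM in Empty (log2 fold change 0.65, SE 0.112, edgeR adjusted p = 0.00381). It passed in all 6 settings that left out 1 library, but not without Empty 2 and 3 (0.43, 0.190). Of 7 tested pancreas progenitor genes, 2 were higher and 0 lower (median 0.23), namely PDX1 and NKX6-1, at 0.41 each (edgeR adjusted p = 0.0115 and 0.00390), which mature beta cells also express. Neither passed without Empty 2 and 3, and PDX1 failed in 3 of the 6 settings that left out 1 library (adjusted p up to 0.0643). The Notch target HES1 (0.23, adjusted p = 0.112) and the receptor gene FGFR2 (0.45, 0.231) did not pass.

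Of 8 tested neuronal genes linked to the C group, 2 were higher and 0 lower (median −0.01), beside 7.11% and 4.98% of all tested genes. DCX, a microtubule-binding protein of migrating neurons, had 76.2, 78.2 and 72.5 CPM in sgZHX3-3 and 46.3, 50.9 and 45.6 CPM in Empty. All sgZHX3-3 libraries lay well above all Empty libraries, at a log2 fold change of 0.67 (SE 0.0612, edgeR adjusted p = 5.32e-05), and it passed in each setting that kept the threshold. MAP2, a dendritic microtubule protein, rose by 0.23 on the log2 scale (adjusted p = 0.0114), a call not kept once the span trend was removed (0.11, 0.136), without Empty 3 (0.0620), without sgZHX3-3 library 2 (0.0743) and without Empty 2 and 3 (0.0870). TUBB3, a known C-group target, was at −0.08 (adjusted p = 0.529).

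Of 8 tested crest and glial genes linked to the E group, 1 was higher and 0 lower (median −0.04): the receptor tyrosine kinase gene RET, at 0.44 (edgeR adjusted p = 0.00609; 0.24, 0.271 without Empty 2 and 3). ERBB3 (0.16, adjusted p = 0.116) and MITF (−0.22, 0.608) did not pass. Of 6 tested pluripotency and neural progenitor genes linked to SOX2, 0 were higher and 1 lower (median −0.04). Of all tested genes, 7.11% were higher and 4.98% lower. NES, the intermediate filament nestin, had 0.783, 1.12 and 0.963 CPM in sgZHX3-3 and 1.67, 1.79 and 2.16 CPM in Empty, and fell by 0.96 on the log2 scale (adjusted p = 0.00872). Its call did not hold when Empty 3 was left out (0.0580), or Empty 2 and 3 (0.241). LIN28B (−0.09), SALL4 (−0.50), PROM1 (0.38), POU3F2 (0.36) and POU2F1 (0.00055) did not pass.

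**Figure D5:**
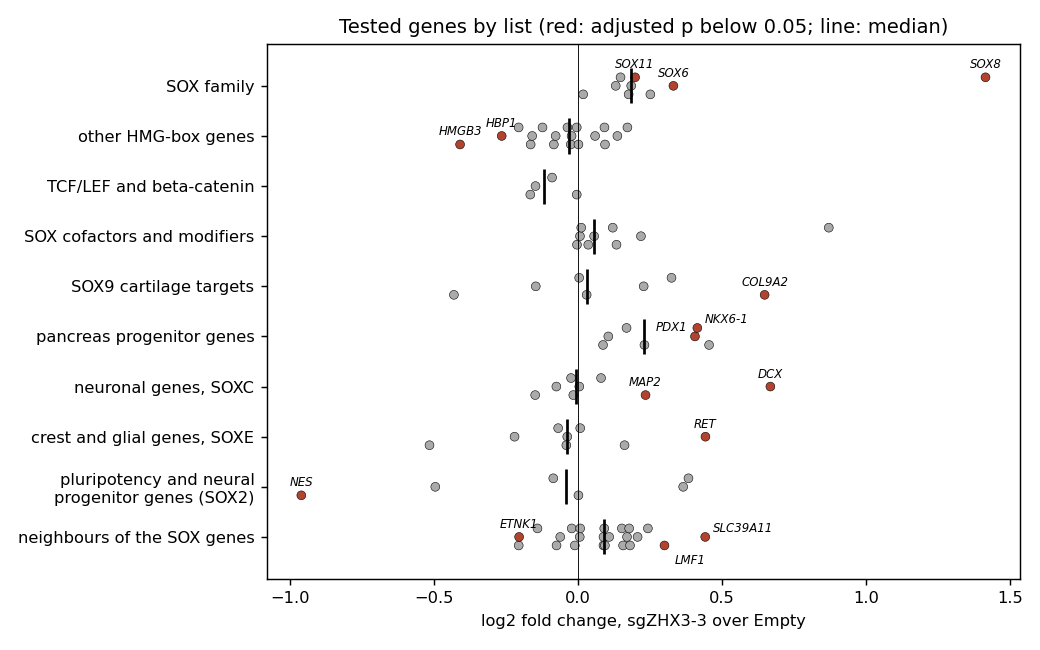
Log2 fold change (sgZHX3-3 over Empty) of the tested genes of each list, with called genes in red and named, other genes in grey and the list median as a line. Only the SOX family row holds a value above 1 (SOX8 at 1.41), and the highest value among the called genes of the other lists is that of DCX at 0.67.

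Where 7.11% of all tested genes were higher and 4.98% lower, the nearest neighbours on the chromosome showed similar rarity of calls. Of these neighbours of the 9 genes, 23 were tested, of which 2 were higher and 1 lower (median 0.09). Besides LMF1 the higher one was SLC39A11, a zinc transporter gene 519.5 kb from SOX9, at 0.44 (edgeR adjusted p = 0.00475; 0.27, 0.242 without Empty 2 and 3; 0.27, 0.0566 with the span trend removed). ETNK1, an ethanolamine kinase gene 838.8 kb from SOX5, was at −0.21 (adjusted p = 0.0391), a call that held in 1 of the 6 settings that left out 1 library and not without Empty 2 and 3 (−0.28, 0.124).

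ZHX proteins bind a subunit of NF-Y, a factor that recognises CCAAT, so the promoters in RefSeq (GRCh38.p14, 250 bases before to 50 after a start) were searched for CCAAT on both strands. Windows were listed for SOX2, SOX4, SOX5, SOX6, SOX12 and SOX13; SOX8, SOX9 and SOX11 had none listed. Of all 35116 windows 34.6% held CCAAT in at least 1 orientation. SOX4, which did not pass, had 4 matches, SOX2 and SOX12 had 1 each, and SOX5 and SOX13 had 0. SOX6, which was higher, had 0, 1, 1, 2 and 0 in its 5 windows, from the most upstream to the most downstream. The SOX4 window and the 5 SOX6 windows lie inside the gene spans given by GENCODE, each downstream of the gene start annotated there. For SOX4 the window is exon sequence in GENCODE. The SOX4 window (chr6:21593501-21593800, plus strand), which held more matches than any other window of these genes, is shown 5′ to 3′ with the matches in capitals.
SOX4: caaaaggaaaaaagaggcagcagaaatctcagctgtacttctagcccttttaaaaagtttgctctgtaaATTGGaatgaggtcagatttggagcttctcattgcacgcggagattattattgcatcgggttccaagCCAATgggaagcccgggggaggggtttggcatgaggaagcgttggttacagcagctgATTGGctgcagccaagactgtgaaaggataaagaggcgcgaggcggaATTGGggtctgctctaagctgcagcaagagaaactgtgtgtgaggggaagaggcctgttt
A match describes these letters only, and binding was not analysed here.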

How the data were processed

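RNA of 3 cultures labelled sgZHX3-3 and 3 labelled Empty was sequenced. The submitters' processing notes name STAR, featureCounts and hg38; libraries were stranded, per the labels' protocols. For versions, annotation and strand setting: not given in the sources used here. What the authors deposited is 1 whole-number count per gene symbol and library, unscaled by their values.

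From these counts, genes were kept by filterByExpr (minimum count 10, minimum total 15; 16199 genes), scaled by TMM and tested with edgeR's robust quasi-likelihood test on group, with Benjamini-Hochberg adjustment over all tested genes and a threshold of 0.05. CPM use TMM library sizes. Intervals are 95%. Depth and groups stand in the text. Spans, exon lengths, neighbours and transcripts come from GENCODE release 29 (23925 of 26485 symbols matched). Ratios used an exact permutation test. Versions used were edgeR 4.0.16, DESeq2 1.42.0 and limma 3.58.1 in R 4.3.3, with Biopython 1.88 and matplotlib 3.10.9 in Python 3.11.15. The procedure was tested on simulated counts.

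The SOX genes, gene lists, tests and alternatives were chosen with earlier results of these data known, so no list is independent evidence. Named genes are the SOX symbols, their 2 nearest neighbours on each side, up to 3 called genes per list and direction, lists of at most 6 tested genes in full, ZHX3 and the 5 genes nearest to SOX8. Other list genes named with values, and EP300, CREBBP and MED12, were chosen after their values were seen. Alternatives were RLE factors, library totals, other filters, DESeq2, limma-voom, a replicate block, left-out libraries, stricter thresholds and removed trends.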

Additional observations from a re-analysis of the deposited data

How the results depend on the processing

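The 9 SOX genes had 3 higher and 0 lower calls. Higher calls numbered 1 with the replicate block, 1 without Empty 2 and 3, 1 at an adjusted p below 0.01 and 1 at a log2 limit of 1, and 1 to 4 with 1 library left out. All genes had 1151 higher and 807 lower calls. These were 516 and 239 with the replicate block, 209 and 40 without Empty 2 and 3, 467 and 194 at an adjusted p below 0.01 and 60 and 46 at a log2 limit of 1. Library totals alone gave 904 higher and 1272 lower calls, so the higher share depends on the scaling. With 1 library left out the higher calls ranged from 474 (without Empty 3) to 1792 (without Empty 1) and the lower ones from 184 to 1499, without the same libraries. The lists together had 8 higher and 4 lower calls, and 4 and 0 without Empty 2 and 3.

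The log2 fold change of SOX4 turned to −0.0194 with library totals and to −0.0058 with length and GC trends removed, SOX5 to −0.16 with the span trend removed and −0.046 without Empty 1 (leave-one-out range −0.046 to 0.298), and SOX9 to −0.0365 without Empty 2 and 3; the cause was not tested. With 1 library left out, the difference in log2 ratio ranged from −0.047 to 0.114 for SOX11/SOX12 and from −0.28 to 0.18 for SOX5/SOX13, and from 1.16 to 1.34 for SOX8/SOX9. The other ratios kept their sign, as did all with pseudocounts of 0.5 and 2.

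No pairing of libraries by replicate number was seen. The deviations of same-numbered libraries correlated at −0.138, 0.0685 and −0.142. Of the sgZHX3-3 libraries, 0 of 3 correlated best with the Empty library of its own number. With deviations taken from group means of only 3 libraries, this cannot show whether same-numbered libraries shared a batch. Under the replicate block SOX8 passed (1.42, edgeR adjusted p = 0.00594), and SOX6 (0.33, 0.0790), SOX11 (0.20, 0.103), MAP2 (0.23, 0.0539), LMF1 (0.30, 0.0635) and ETNK1 (−0.21, 0.0634) did not; it changed no other call of a named gene with alternatives. Among the SOX genes described here, counting error was largest for SOX5 and SOX8, at a CV of 9.46% and 10.7% in Empty. Their observed CVs in Empty were larger, at 24.9% and 16.1%.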
